A study of Mus musculus with 6 samples.

Results

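The chaperones of the endoplasmic reticulum and the genes of the unfolded protein response were compared between neural stem cells of young and old mice, over a list of 44 genes chosen by symbol. Of these, 42 had a probe set that carried their symbol alone, and 40 passed the filter on dim signal, which asked for a level over log2 4 in 3 or more arrays. Derl3 and Atf3 did not pass it. That level stands in for background, since detection calls were not used. They stand among 10050 named genes past the same filter. The samples were 3 of the group labelled YoungNSC, from mice aged 6 weeks, and 3 of the group labelled OldNSC, from mice aged 9 months. All 6 came from the strain C57BL/6JRj, and the labels give no transgene, treatment or other agent in either group. RNA was extracted with a NucleoSpin XS kit and labelled with the NuGEN Encore Biotin module before hybridisation to Affymetrix arrays. The labels give no brain region, time in culture or number of animals per sample. They also do not say that replicates are separate animals or cultures, and the p-values therefore cover the spread of these samples alone, possibly a technical one. In bulk RNA of this kind, fewer cells of a type and less RNA per cell cannot be told apart.

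The endoplasmic reticulum folds the proteins that a cell secretes or places in its membranes. Proteins enter through a channel, are held by chaperones and lectins, gain disulfide bonds from oxidoreductases, and are pulled back to the cytosol for destruction if they fail to fold. When misfolded proteins pile up, the sensors Ire1 (gene Ern1), Perk (gene Eif2ak3) and Atf6 start the unfolded protein response. Ire1 splices the messenger RNA of Xbp1, Perk slows translation and favours the factor Atf4, and Atf6 is cut to release a transcription factor. An array of this kind reads the amount of messenger RNA, so it sees neither the splicing of Xbp1 nor the activity of the sensors.

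Levels are given on the log2 scale as deposited, 1 value for each probe set and array, and a difference of 1 on this scale is a doubling. A gene stands for its brightest probe set, and "rose" or "fell" is written only at an adjusted p under 0.05 in limma, adjusted over all 19858 probe sets past the filter. The defining markers of neural stem cells were present on all arrays, with 7 of 8 past the filter, of which Msi1 rose (0.52) and Nes fell (-0.46), while the stem cell surface marker Prom1 stayed under log2 4 on all 6. Summed over these 8 on the linear scale, the level was 95648 to 97116 in young and 92305 to 93248 in old arrays. Of the markers of other cells, all 7 of microglia, all 5 of endothelium and all 4 measured ones of oligodendrocytes lay under log2 4 on every array, as did 7 of 8 of mural cells and fibroblasts. Astrocyte markers other than Gfap, which did not pass, moved with age. The level summed over the 4 of them on the linear scale was 550 to 815 in young and 1794 to 2426 in old arrays, and 3 of the 4 rose, S100b by 2.93, Aqp4 by 2.71 and Aldh1l1 by 0.86. The ependymal factor Foxj1 rose at least 3.50-fold while Ttr and Kl stayed under log2 4 on all arrays, and the summed level of these 3 genes was 16.3 to 21.2 in young and 49.8 to 87.4 in old arrays. The summed level of 5 neuron markers was 67.9 to 77.9 in young and 33.0 to 45.4 in old arrays, with Rbfox3, Syt1 and Stmn2 under log2 4 throughout. That of the 8 mural and fibroblast markers was 117 to 183 in young and 62.2 to 99.9 in old arrays. The 18 hybridisation controls, spiked in at set amounts, averaged log2 13.24 ± 0.28 for the young and 12.28 ± 0.098 for the old group (SD, n = 3). They were lower on every old array (two-sided exact permutation p = 0.1, the smallest that 3 against 3 can give). The part of these differences in the results that follow was not tested.

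In old cells 12 of the 40 members rose, or 30%, and 3 fell, or 7.5%, where 22.0% of all named genes rose and 18.5% fell, 40.6% in either direction. Over the 88 member probe sets past the filter 24 rose and 8 fell, where 20.1% of all probe sets rose and 16.5% fell, 36.6% in either direction. The rises went from 1.17-fold to 1.89-fold, and 14 of the 15 changed genes differed by less than 2-fold. The median size of the log2 change was 0.14 over the 40 members and 0.23 over all named genes. The median log2 change was 0.09 over the 40 members and 0.01 over all named genes. Without old replicate 2 the count of members that rose was 7, and without young replicate 2 the median was 0.047. For 16 members all 3 old arrays lay above all 3 young arrays, and for 4 they lay below, against 31.8% and 28.2% of all named genes. Of the 15 members that changed, 9 still passed whichever array was dropped, namely Ern1, Atf6, Dnajb9, Hyou1, Edem1, Derl1, Pdia5, Ero1l and Sec63. The matching share of all changed genes was not counted, so this number does not set the members apart.

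**Figure D1:**
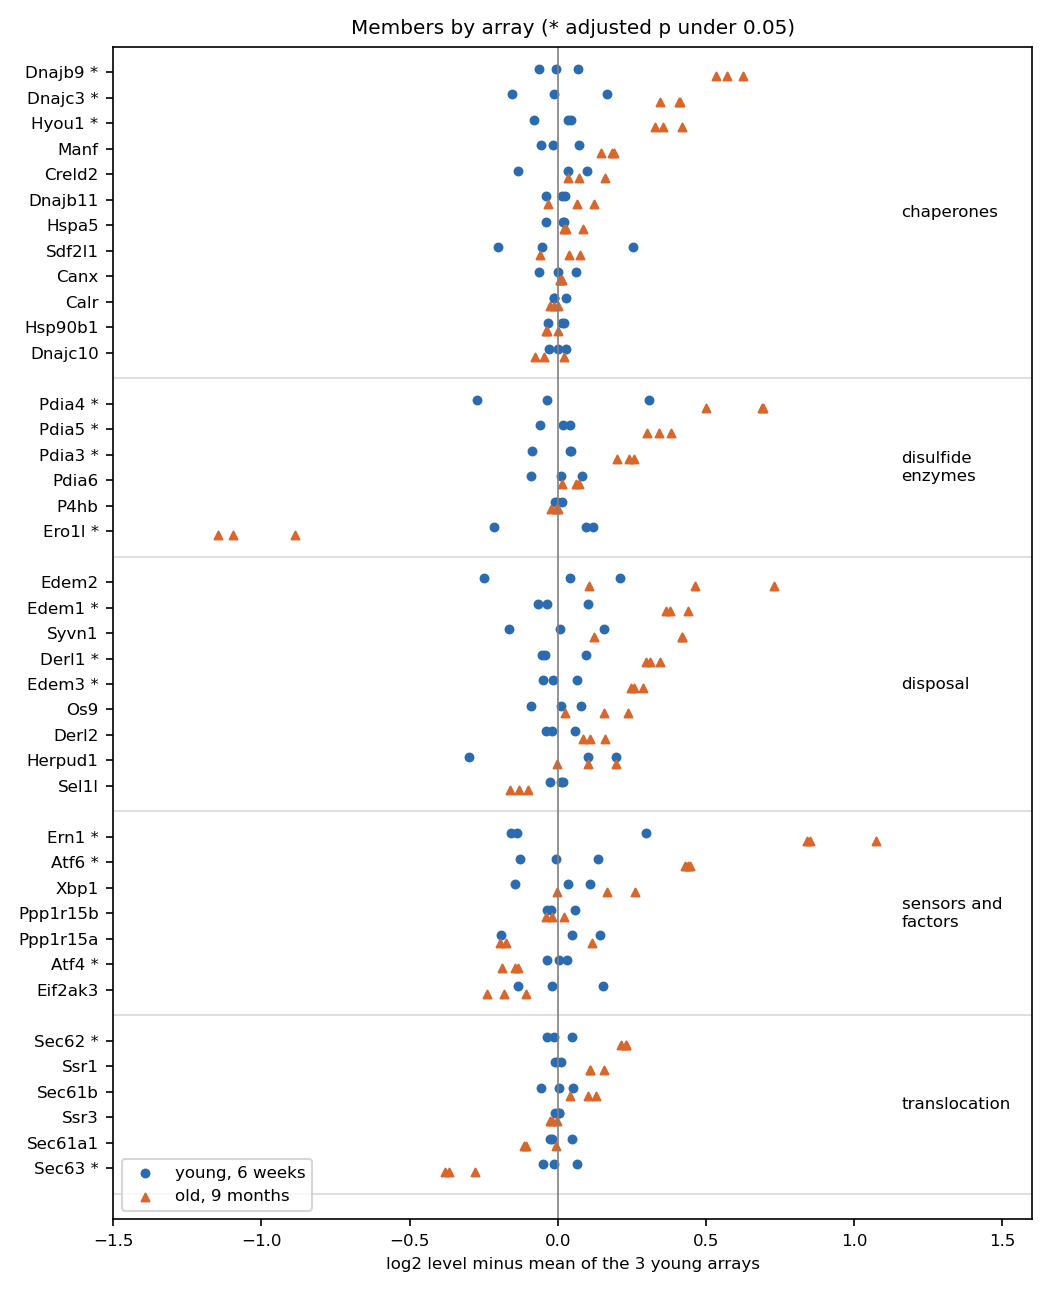
Level of each of the 40 members past the filter on every array, as log2 level minus the mean of the 3 young arrays, with young arrays as blue circles, old arrays as orange triangles, and an asterisk at an adjusted p under 0.05. Ern1, Pdia4 and Dnajb9 lie farthest to the right in old cells and Ero1l farthest to the left, at -1.04, while most of the abundant chaperones sit at 0.

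Of the 3 sensors, 2 rose and 1 did not pass, where 22.0% of all named genes rose and 18.5% fell. Ern1, the kinase and endoribonuclease Ire1, lay at 8.97, 8.53 and 8.51 on the young arrays and at 9.51, 9.52 and 9.74 on the old ones. Every old array was above every young one, and young replicate 1 was the closest of the young. Ern1 rose by 0.92 ± 0.15 (SE), or 1.89-fold (adjusted p = 0.00704), the largest rise among the members by brightest probe set. It rests on 1 of 5 probe sets of Ern1, since the other 4 lay at or next to the lowest value on all arrays. Atf6, the membrane-bound transcription factor, lay at 10.45, 10.31 and 10.18 on the young and at 10.76, 10.75 and 10.74 on the old arrays. The old arrays were nearly equal and again all higher, and Atf6 rose 1.36-fold (adjusted p = 0.00922). Its other 2 probe sets past the filter rose as well, by 0.90 and 1.46. Eif2ak3, the kinase Perk, lay at 10.47, 10.18 and 10.29 on the young and at 10.07, 10.13 and 10.21 on the old arrays. These groups overlapped, and the log2 change of -0.18 (95% interval -0.40 to 0.05) did not pass (adjusted p = 0.175).

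Within each array the log2 level of Ern1 minus that of Eif2ak3 was -1.64 ± 0.14 in young and -0.54 ± 0.076 in old arrays (SD, n = 3), a shift of 1.10. For Atf6 minus Eif2ak3 the shift was 0.61, and for Ern1 minus Atf6 it was 0.48. Each of these differences was higher on all 3 old arrays than on all 3 young ones. In a two-sided exact permutation test each p was 0.1, which is as low as this design can go, and so was each p adjusted over the 6 pairs compared. The pairs were chosen after their values were seen.

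Of the transcription factors below the sensors that are members of the list, none rose at its brightest probe set. Atf4, the factor that acts after Perk, lay at 13.24, 13.21 and 13.27 on the young and at 13.05, 13.09 and 13.11 on the old arrays. It fell by 0.16 on the log2 scale (adjusted p = 0.0448), but it no longer passed when any single array was dropped. Xbp1, the target of Ire1, lay at 10.02, 9.95 and 9.77 against 9.91, 10.08 and 10.17, with a change of 0.14 that did not pass (adjusted p = 0.313). All 4 of its probe sets had a positive change, 0.14 to 0.38, and the second brightest passed (adjusted p = 0.0323). Atf3, a stress factor of the same family as Atf4, stayed under the filter, at 3.31 to 3.83 on the young and 2.82 to 3.30 on the old arrays. The subunits that end the translational block did not pass either, with changes of -0.08 for the stress-induced Ppp1r15a and -0.01 for the constitutive Ppp1r15b. Eif2s1, the translation factor that Perk phosphorylates, was not analysed here for want of a probe set with its symbol.

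**Figure D2:**
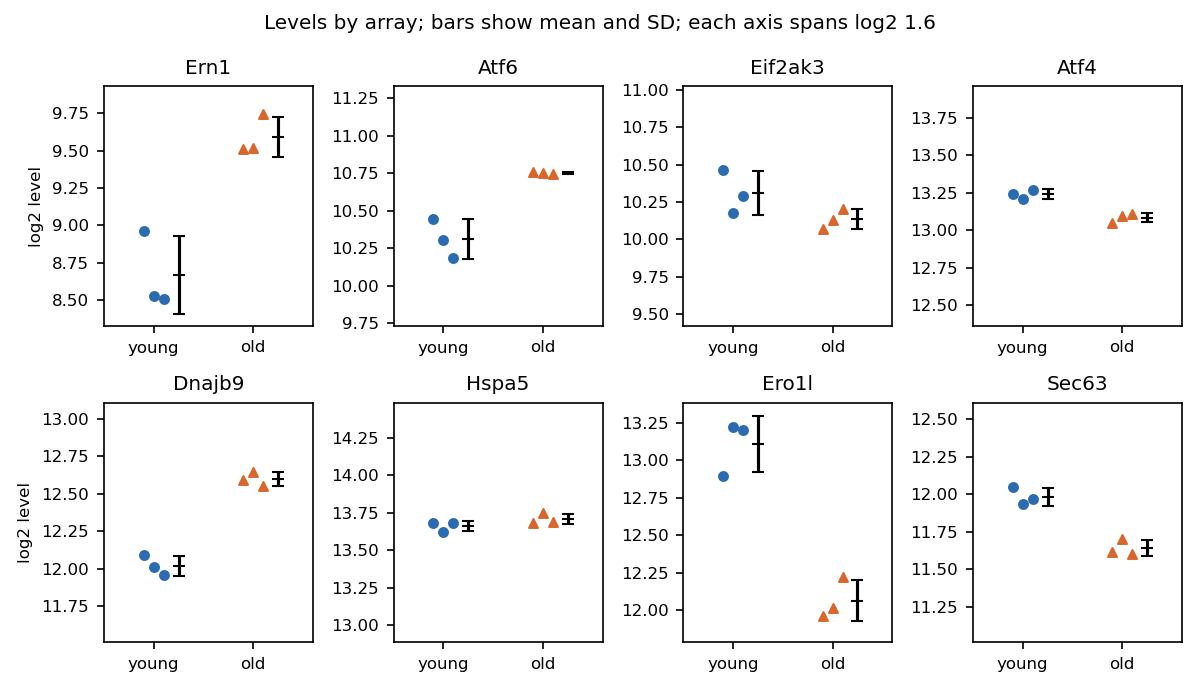
Log2 level on each array for the sensors Ern1, Atf6 and Eif2ak3, the factor Atf4, the chaperones Dnajb9 and Hspa5, the oxidase Ero1l and the channel partner Sec63, with young arrays as blue circles, old arrays as orange triangles, and bars for the mean and SD of 3 arrays. Every axis spans 1.6 on the log2 scale, so the gaps can be set side by side, and the ages overlap for Eif2ak3.

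Of 26 other genes of stress signalling past the filter, 8 rose and 4 fell, where 22.0% of all named genes rose and 18.5% fell. The median log2 change of the 26 was 0.06. The genes that fell were Chac1, Ddit3, Ddit4 and Rtcb, of which all but Chac1 were named after their values were seen. Ddit4 did not pass without young replicates 2 or 3 or old replicates 1 or 2, nor Rtcb without young replicate 3 or old replicates 1 or 2. Chac1, which breaks down glutathione and is a known target of Atf4, went from 7.49, 6.62 and 7.16 on the young arrays to 3.06, 3.82 and 3.22 on the old ones, at least 8.52-fold lower against log2 4 (adjusted p = 0.000724). Ddit3, the factor Chop downstream of Perk, lay at 8.97, 8.48 and 8.94 on the young and at 7.18, 7.63 and 7.22 on the old arrays, a log2 change of -1.45 (adjusted p = 0.00342). The other probe set of Ddit3 past the filter had a change of -0.01. The pseudokinase Trib3, also downstream of Atf4, was under the filter at 3.74 to 4.26 in young and 2.14 to 2.28 in old arrays. Of the genes that rose, Casp12, a caspase of this organelle, went from 4.26 to 5.39 over the young arrays to 10.44 to 10.89 over the old ones (adjusted p = 0.000205), and its other probe set rose by 6.32. Its young level is close to background, so the size of the rise is uncertain. Creb3l2, a membrane-bound factor of the secretory pathway built like Atf6, rose 3.33-fold (adjusted p = 0.000362), and the stress kinase Map3k5 rose 1.84-fold (adjusted p = 0.00177). Atf6b, the close relative of Atf6, rose by 0.50 (adjusted p = 0.00306) and was named after its value was seen. So were the remaining genes that rose, Eif2ak2, Eif2ak1, Nupr1 and Nfe2l2. Eif2ak2 still passed whichever array was dropped, and its other probe sets rose by 0.71 and 0.91. Eif2ak1, Nupr1 and Nfe2l2 each passed in only 1 of the 6 fits with an array left out.

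Among the 12 chaperones of the lumen 3 rose (25%) and 0 fell, where 22.0% of all named genes rose and 18.5% fell. Changes were at most 0.04 for the abundant Hspa5, Hsp90b1, Calr and Canx. Hspa5, the chaperone BiP that binds the 3 sensors, lay at 13.68, 13.63 and 13.68 on the young and at 13.68, 13.75 and 13.69 on the old arrays. The arrays of both ages lay within a narrow band, and the change of 0.04 (95% interval -0.07 to 0.16) did not pass (adjusted p = 0.486). Its other probe set past the filter rose by 0.19 (adjusted p = 0.0305). The chaperone Hsp90b1 had a change of -0.03 (95% interval -0.14 to 0.08), the lectin Calr of -0.01 (-0.12 to 0.09) and the membrane lectin Canx of 0.01 (-0.11 to 0.14). None of the 3 passed, though the second probe set of Canx rose by 0.25 (adjusted p = 0.0364).

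The 3 that rose are helpers of Hspa5. Dnajb9, a J-domain co-chaperone that binds Ire1 and misfolded proteins, lay at 12.09, 12.01 and 11.96 on the young and at 12.59, 12.65 and 12.55 on the old arrays. It rose by 0.58 ± 0.056 (SE), or 1.49-fold (adjusted p = 0.0014), with a gap between the ages far wider than the spread within either. Hyou1, a nucleotide exchange factor for Hspa5, went from 10.22, 10.21 and 10.09 to 10.53, 10.50 and 10.59, a rise of 1.29-fold (adjusted p = 0.00656). A dimmer probe set of Hyou1 rose too, by 0.62. Dnajc3, a co-chaperone that also inhibits Perk, went from 12.79, 12.61 and 12.47 to 13.03, 13.04 and 12.97, a rise of 1.31-fold (adjusted p = 0.0229). That call was lost without young replicate 2 and without any 1 of the old arrays, but all 5 probe sets of Dnajc3 rose, by 0.39 to 1.03. The log2 level of Dnajb9 minus that of Hspa5, a pair chosen after its values were seen, shifted by 0.53 within the arrays (exact permutation p = 0.1).

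The other 5 helpers of the lumen did not pass. The secreted stress factor Manf lay at 12.40, 12.27 and 12.31 on the young and at 12.51, 12.52 and 12.48 on the old arrays, all higher, with a change of 0.17 (adjusted p = 0.0524). Changes were 0.09 for Creld2, 0.05 for the co-chaperone Dnajb11, 0.02 for Sdf2l1 and -0.03 for the reductase Dnajc10.

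The promoters of these genes are known for the endoplasmic reticulum stress element, ERSE, at which Atf6 acts with the factor NF-Y. CCAAT, then 9 bases of any kind, then CCACG, were searched for on both strands of RefSeq promoter windows of assembly GRCm38.p6, from 250 bases before the start of a gene to 50 after it. Of the 44 members 38 had a window, and 9 of these held the element, or 23.7%, against 37 of 27025 genes, or 0.137%. The 37 include the 9 members. The members were listed as genes of this response, for which the element is known, so the higher share is not an independent result. The element ERSE-II, ATTGG, then 1 base of any kind, then CCACG, was in 2 of the 38 (5.26%), Dnajb11 and Herpud1, against 0.0444% of all genes. The Xbp1 site TGACGTGG was in 0 of the 38 windows (0.714% of all genes), and the Atf4 site TTGCATCA in 2 of the 38 (1.03% of all genes), Herpud1 and Atf3. No matches overlapped in the members. A match is a description of letters, not of binding. The stretches below, each with up to 30 bases on either side, show the 8 members with an ERSE that passed the filter, Dnajc3, which rose, and 7 whose brightest probe set did not pass. The ERSE is in capitals, and it stands in the reverse orientation in Calr, Creld2 and the second copy in Hsp90b1. The positions are chr14:118937797-118937875 (plus strand) for Dnajc3, chr2:34771995-34772073 (plus strand) for Hspa5, chr10:86705503-86705686 (minus strand) for Hsp90b1, chr8:84847045-84847123 (minus strand) for Calr, chr11:50325770-50325848 (minus strand) for Canx, chr12:17266461-17266539 (plus strand) for Pdia6, chr19:6046502-6046575 (plus strand) for Syvn1 and chr15:88819490-88819568 (plus strand) for Creld2.
Dnajc3: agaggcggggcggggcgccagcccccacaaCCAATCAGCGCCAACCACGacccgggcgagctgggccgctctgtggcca
Hspa5: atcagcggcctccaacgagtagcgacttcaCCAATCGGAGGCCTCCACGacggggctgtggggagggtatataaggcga
Hsp90b1: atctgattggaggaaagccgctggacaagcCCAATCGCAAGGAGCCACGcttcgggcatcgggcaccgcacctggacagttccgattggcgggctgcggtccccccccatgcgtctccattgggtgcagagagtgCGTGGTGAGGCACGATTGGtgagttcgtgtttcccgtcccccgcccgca
Calr: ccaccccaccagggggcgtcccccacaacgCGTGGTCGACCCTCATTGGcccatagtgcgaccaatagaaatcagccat
Canx: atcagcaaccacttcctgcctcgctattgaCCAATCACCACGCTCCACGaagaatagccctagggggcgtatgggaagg
Pdia6: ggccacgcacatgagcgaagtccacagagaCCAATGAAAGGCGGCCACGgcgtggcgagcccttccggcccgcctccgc
Syvn1: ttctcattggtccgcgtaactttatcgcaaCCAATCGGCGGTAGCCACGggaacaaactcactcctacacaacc
Creld2: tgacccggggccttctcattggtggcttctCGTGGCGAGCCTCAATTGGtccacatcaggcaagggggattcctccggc

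Of the 8 members with an ERSE in the window that passed the filter, 1 rose and 0 fell, with changes from -0.03 to 0.39 and a median of 0.05. After Dnajc3 the largest change among them was that of the ubiquitin ligase Syvn1, 0.32 (adjusted p = 0.0935), which passed with the replicate number as a block (adjusted p = 0.0391). Of the 26 with a window but without these letters 8 rose and 3 fell, with changes from -1.04 to 0.92 and a median of 0.11. The remaining ERSE member, Derl3, was at the lowest value of the arrays, 2.14, on all 6. Ern1, Dnajb9 and Edem1, which rose, are among those with no match in the window. The difference between these counts was not tested. Of all named genes 22.0% rose and 18.5% fell. The 6 members without a window, Derl1, Manf, Atf6, Hyou1, Sec61a1 and Ppp1r15b, could not be searched. Among them Atf6, Hyou1 and Derl1 rose.

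Among 6 enzymes that form disulfide bonds 3 rose and 1 fell, where 22.0% of all named genes rose and 18.5% fell. The fall was that of Ero1l, the oxidase that recharges protein disulfide isomerase and is also known to be induced by low oxygen. It lay at 12.89, 13.22 and 13.20 on the young and at 11.96, 12.01 and 12.22 on the old arrays. The ages stood far apart, and Ero1l fell by 1.04 ± 0.12 on the log2 scale (SE), or 2.06-fold (adjusted p = 0.00243), the only member to differ by over 2-fold. Its other 2 probe sets fell by 1.23 and 1.76. P4hb, the isomerase it oxidises, stayed between 13.90 and 13.94 on all 6 arrays. The log2 level of Ero1l minus that of P4hb went from -0.82 ± 0.18 to -1.85 ± 0.13 (SD, n = 3, exact permutation p = 0.1). This pair was chosen after its values were seen. Ero1lb, the second oxidase gene, rose by 0.51 at its brightest probe set (adjusted p = 0.0245) and had -0.92 at its other, and the call was lost without young replicate 3, old replicate 1 or old replicate 3.

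Of the 5 isomerases 3 rose, where 22.0% of all named genes rose. Pdia4 lay at 10.69, 10.10 and 10.34 on the young and at 10.88, 11.07 and 11.07 on the old arrays, a rise of 1.54-fold (adjusted p = 0.0306). Pdia5 went from 9.98, 9.88 and 9.96 to 10.28, 10.32 and 10.24, a rise of 1.27-fold (adjusted p = 0.0058). Pdia3, which works with Calr and Canx on glycoproteins, rose 1.17-fold (adjusted p = 0.0263). The calls for Pdia3 and Pdia4 were each lost without young replicate 3 and without any 1 of the old arrays. Pdia6, which also acts on Ire1, had a change of 0.05 (adjusted p = 0.555). In the list of other disulfide enzymes and prolyl isomerases 7 of 19 genes rose and 2 fell, where 22.0% of all named genes rose and 18.5% fell. Fkbp14, a prolyl isomerase of this organelle, rose 2.86-fold (adjusted p = 0.000285). The prolyl isomerases Fkbp7 and Fkbp9 rose 1.39-fold and 1.27-fold, and the membrane thioredoxin Tmx4 1.30-fold. The 2 that fell, named after their values were seen, were Tmx3 (-0.34) and the cyclophilin Ppic (-0.20), of which Ppic did not pass once any single array was dropped.

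Of 9 measured genes for the disposal of misfolded proteins 3 rose and none fell, where 22.0% of all named genes rose and 18.5% fell. Edem1 and Edem3, which trim mannose from glycoproteins to mark them for disposal, rose 1.31-fold and 1.20-fold (adjusted p = 0.00689 and 0.0122). Edem1 went from 10.07, 9.93 and 9.90 on the young arrays to 10.41, 10.35 and 10.33 on the old ones. Edem2, the enzyme of the first trimming step, had a change of 0.43 that did not pass (adjusted p = 0.14), with old replicate 1 inside the young range. Derl1, a membrane protein of the retrotranslocation channel, went from 12.01, 11.87 and 11.86 to 12.23, 12.26 and 12.21, a rise of 1.25-fold (adjusted p = 0.0108). Its 4 probe sets all had positive changes, 0.24 to 0.32. The second probe sets of Edem1 (-0.12) and Edem3 (-0.51) went the other way without passing, and on the mean of a gene's probe sets Edem1, Edem3 and Derl1 did not pass. The Edem3 call was also lost without old replicate 2.

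The ligase complex at the membrane gave no call at its brightest probe sets. The ubiquitin ligase Syvn1 had a change of 0.32 (adjusted p = 0.0935), and Herpud1, which recruits it, of 0.10 (adjusted p = 0.617). Sel1l, the adaptor of Syvn1, lay at 13.08, 13.12 and 13.13 on the young and at 12.98, 12.95 and 13.01 on the old arrays, all lower, with a change of -0.13 (adjusted p = 0.0693). Its next probe set rose by 0.44 (adjusted p = 0.0236), so the probe sets of Sel1l disagreed in sign. The lectin Os9 had 0.14 and the channel protein Derl2 0.12, and neither passed. Of 21 other disposal genes 5 rose and 2 fell, where 22.0% of all named genes rose and 18.5% fell. The peptide glycanase Ngly1 rose 1.65-fold (adjusted p = 0.00177) and the conjugating enzyme Ube2j1 1.44-fold (adjusted p = 0.00467). The other probe set of Ube2j1 past the filter had a change of 0.04 and did not pass. Fam8a1, a partner of Syvn1, rose 1.26-fold (adjusted p = 0.0079). The conjugating enzyme Ube2g2 fell 1.42-fold (adjusted p = 0.00609), as did the ligase Rnf5 (-0.34, adjusted p = 0.0269), which was named after its value was seen. Rnf5 did not pass without young replicate 1 or 2 or old replicate 1 or 3.

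**Figure D3:**
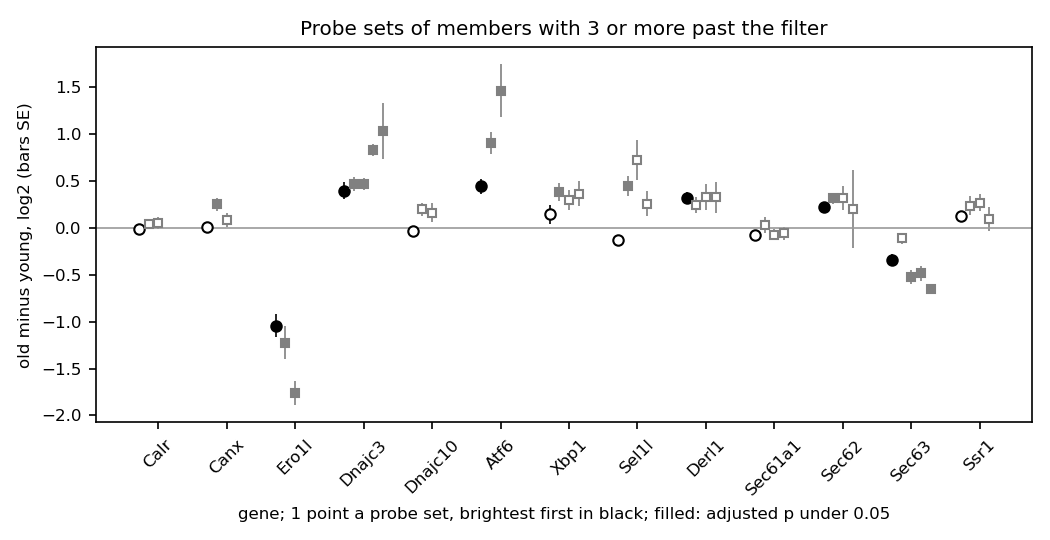
Old minus young log2 change, with SE bars, of every probe set past the filter for the 13 members with 3 or more, the brightest first in black and filled symbols at an adjusted p under 0.05. Ero1l, Dnajc3 and Atf6 have all probe sets filled on one side of 0, and Sec63 has 4 of 5 filled below it, while those of Sel1l fall on both sides.

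In the translocation channel, Sec62 and Sec63 moved in opposite directions. The 2 proteins sit together on the Sec61 channel and help in proteins after their synthesis, and Sec63 carries a J-domain that engages Hspa5. Sec63 lay at 12.05, 11.93 and 11.97 on the young and at 11.61, 11.70 and 11.60 on the old arrays. It fell by 0.34 ± 0.056 on the log2 scale (SE), or 1.27-fold (adjusted p = 0.00755), and 4 of its 5 probe sets passed as lower. Sec62 lay at 13.83, 13.77 and 13.75 on the young and at 14.01, 14.01 and 13.99 on the old arrays, a rise of 1.17-fold (adjusted p = 0.0147), with 2 of 4 probe sets passing. The Sec62 call was lost without old replicate 1 or old replicate 2 and on the mean of its probe sets. Within the arrays the log2 level of Sec62 minus that of Sec63 went from 1.80 ± 0.033 to 2.37 ± 0.050 (SD, n = 3), with no overlap of the ages (exact permutation p = 0.1). This pair, too, was chosen after its values were seen.

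The subunits of the channel and their partners did not pass, with -0.07 for the pore subunit Sec61a1, 0.09 for Sec61b, and 0.12 and -0.02 for the translocon-associated Ssr1 and Ssr3. Sec61g had only a probe set shared with other symbols, 13.61 to 13.64 on the young and 13.45 to 13.49 on the old arrays, which cannot be assigned to it. Of 20 other genes of translocation and signal peptides 4 rose and 1 fell, where 22.0% of all named genes rose and 18.5% fell. Tram2, a membrane protein of the translocon, rose 1.90-fold (adjusted p = 0.0011), and Srp68 of the signal recognition particle fell 1.26-fold (adjusted p = 0.00332). The subunits of the receptor of that particle, Srprb and Srpr, rose 1.33-fold and 1.23-fold (adjusted p = 0.0127 and 0.0135). Srpr did not pass without old replicate 3, and its other probe set had a change of -0.22. The other 2 probe sets of Srprb had changes of 0.02 and 0.64, of which 1 passed.

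Genes outside the list but of the same organelle were read in 8 further lists. Over these, 46 of 151 genes past the filter rose, or 30.5%, and 10 fell, or 6.62%, against 22.0% and 18.5% of all named genes. Among other chaperones 8 of 16 rose and 1 fell, Clgn, the germ cell relative of Canx (at least 3.42-fold lower, adjusted p = 0.0108), which was named after its value was seen. The largest rise in this list was that of Serpinh1, the collagen chaperone, at 4.44, 2.34 and 3.21 on the young and 12.86, 12.75 and 12.89 on the old arrays, at least 336-fold (adjusted p = 0.000236). Its other probe set past the filter rose by 9.10. The J-domain protein Dnajc1 rose 1.75-fold, Cnpy3, a chaperone of Toll-like receptors, 1.66-fold, and Wfs1, a membrane protein of the organelle, 2.52-fold, with adjusted p of at most 0.00165 for these 3. In N-glycosylation 4 of 17 rose, near the 22.0% of all named genes, and none fell. Tusc3 of the oligosaccharyltransferase rose 1.58-fold (adjusted p = 0.00192), and the glucosidase subunit Ganab 1.20-fold (adjusted p = 0.00683). Stt3a, a catalytic subunit of the same transferase, rose by 0.22 (adjusted p = 0.0183), but not without young replicate 1 or 3 or old replicate 1 or 3. Uggt1, which senses the folding of glycoproteins, rose 1.31-fold (adjusted p = 0.0207), but not without young replicate 1, old replicate 1 or old replicate 3. The other probe set of Uggt1 past the filter had a change of 0.10 and did not pass.

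**Figure D4:**
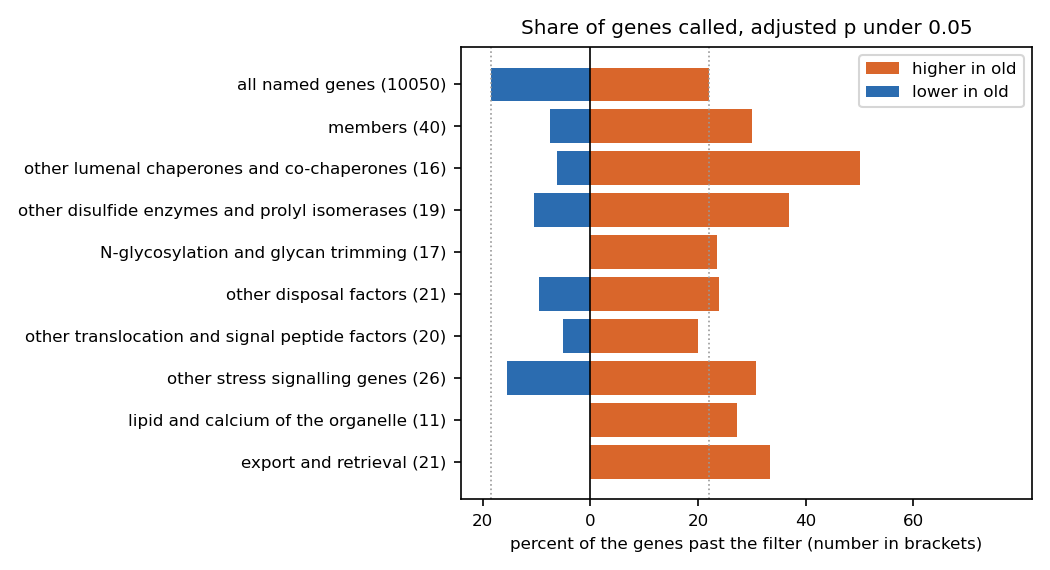
Percent of the genes past the filter that were higher (orange) or lower (blue) in old cells at an adjusted p under 0.05, for all named genes, the members and 8 further lists of the organelle, with the number of genes in brackets and dotted lines at the shares of all named genes, 22.0% and 18.5%. The blue bars of the members and of every further list end short of the dotted line on their side.

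Changes were smaller among the brightest members. Of the 15 members with a mean above log2 13, a level chosen after the values were seen, 2 rose and 1 fell, with a median size of change of 0.075. Of the 25 below it 10 rose and 2 fell, with a median size of 0.32. Over all named genes 285 of 1261 above log2 13 and 3791 of 8789 below it changed, with median sizes of 0.088 and 0.27. The highest value was 15.57, 15.57 and 15.61 on the young arrays and 15.23, 15.40 and 15.27 on the old ones, lower on each. Whether the most abundant transcripts differ by more than the arrays show at this end of their range was not tested.

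**Figure D5:**
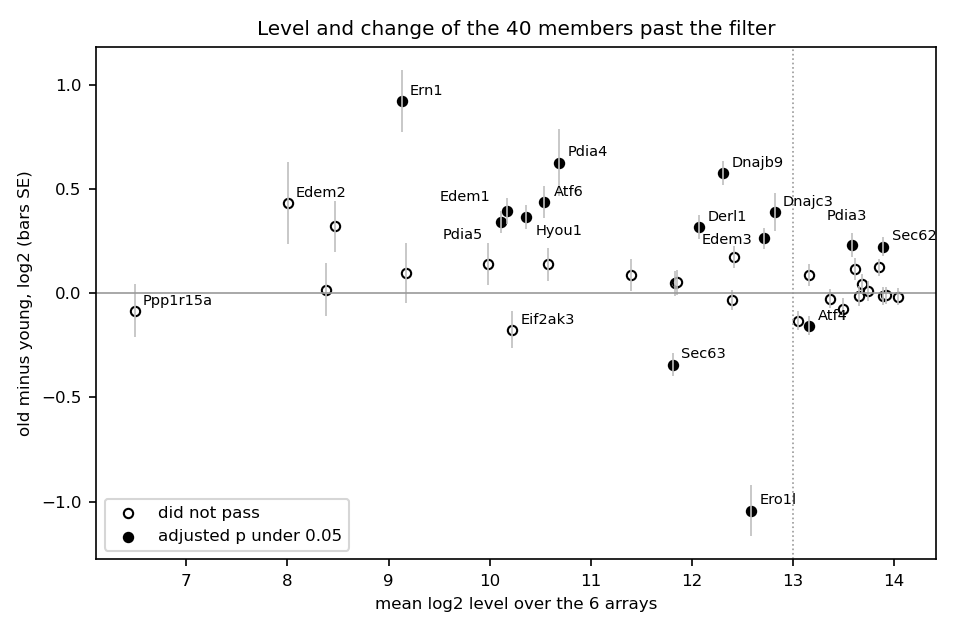
Old minus young log2 change, with SE bars, against the mean log2 level over the 6 arrays for the 40 members past the filter, filled at an adjusted p under 0.05, with a dotted line at log2 13. Most points right of the line lie near 0, and the widest changes lie left of it, with Ern1 at 0.92 and Ero1l at -1.04.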

How the data were processed

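RNA of 3 young and 3 old samples was read on 6 arrays. The authors deposited log2 levels per probe set, computed with GCRMA according to the submitters' processing notes, with its version not given in the sources used here. GCRMA pulls dim probe sets toward one shared lowest value, 2.14, and so understates their spread. Names came from the platform annotation, in which 34945 of 45101 probe sets had 1 symbol, 932 several and 9160 none, beside 64 controls; only those with 1 symbol were named.

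Probe sets over log2 4 on 3 or more arrays were fitted in limma 3.58.1 (R 4.3.3; lmFit, eBayes, two-sided, Benjamini-Hochberg over 19858 probe sets). Where one age averaged under log2 4, a fold is a lower bound, taken against log2 4 or the highest array of that age. The test was tried on simulated data.

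The members, the further lists and the naming rule (all members, up to 4 called genes of lowest p from every other list, cell type markers) were chosen with earlier results of these data known. Alternatives covered the filter, scaling, a replicate block, array weights, trend and robust options, averaging of probe sets, the threshold and each array dropped in turn. The number of arrays limits the precision.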

Additional observations from a re-analysis of the deposited data

How the results depend on the processing

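At an adjusted p under 0.01 the members that rose numbered 6, and the probe sets of the whole array 2148 higher and 1629 lower, against 3995 and 3273. Leaving out 1 array at a time gave 7 to 13 members higher and 2 lower in each case, a median change of the members of 0.047 to 0.137, and 2768 to 3961 probe sets higher and 2177 to 3301 lower. The lowest counts of members and of lower probe sets both came without old replicate 2, and the lowest median without young replicate 2. The direction and the side of the threshold were as reported for 33 of the 40 members at that threshold, for 34 with the replicate number as a block, for 34 on the mean of a gene's probe sets, for 34 to 38 with 1 array left out, and for 36 to 39 under the other alternatives. The mean of a gene's probe sets turned the sign of Edem3 (-0.12, adjusted p = 0.749) and of Sel1l (0.32, adjusted p = 0.0468), because their dimmer probe sets went the other way. Under quantile normalization again, centring on the medians and array weights 14, 13 and 13 members rose.

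Same-numbered young and old arrays did not deviate together, with r of -0.16, -0.11 and 0.16 across probe sets, and 1 of the 3 young arrays correlated best with its own number. With the replicate number as a block 9 members rose and 2 fell, with 3144 probe sets higher and 2456 lower. Pdia3, Pdia4, Edem3, Sec62 and Atf4 did not pass there, and Syvn1 did. Apart from the threshold of 0.01 and the fit without old replicate 2, no alternative moved a count of members by over 1.5 times.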

Other observations

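Genes that carry folded proteins out of the endoplasmic reticulum, a list not described above, gave 7 higher and 0 lower of 21 past the filter. Their median log2 change was 0.13. Over all named genes 22.0% rose and 18.5% fell. Sec24d, a coat subunit of the vesicles that leave the organelle, lay at 7.84 ± 0.33 in young and 9.13 ± 0.11 in old cells (log2, SD, n = 3), a rise of 2.45-fold (adjusted p = 0.00396). Mcfd2, which loads cargo with the lectin Lman1, rose 1.55-fold (adjusted p = 0.00301), the lectin Lman2 1.51-fold (adjusted p = 0.0043) and the cargo receptor Surf4 1.25-fold (adjusted p = 0.00502). All 5 probe sets of Surf4 past the filter passed as higher. Of 11 genes of calcium and lipid control in this organelle 3 rose and 0 fell, Calu, Sdf4 and Stim2, by 0.18 to 0.22, but Sdf4 and Stim2 did not pass once any single array was dropped, and Calu passed only when that array was young replicate 1.

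The SD was larger in young cells for 27 of the 40 members, with medians of 0.066 in young and 0.039 in old cells (log2), and over all named genes the medians were 0.099 and 0.077. Young replicate 1 was the highest young array for 25 of the 40 members, and young replicate 2 the lowest for 19.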
